A study of Homo sapiens with 12 samples.

Results

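The genes described here are 9 markers used to recognise neuroendocrine cells: CHGA, CHGB, SCG2, SCG3, SYP, NPY, INSM1, NCAM1 and ENO2. They were chosen by symbol, as the rows of the deposited count tables that carry one of these names, and each name matched 1 gene, 9 of 60106 genes in all. RNA was sequenced from PC3 and VCaP, established human prostate cancer lines, the first from a bone metastasis and the second from a vertebral metastasis with a rearranged ERG gene. Each line was transfected with RNAiMax and either a non-targeting siRNA (NSI) or an siRNA against FOXA1 (siFOXA1), and RNA was taken after 72 hours, from 3 libraries in each of the 4 groups. PC3 received 20 nM siRNA in RPMI and its libraries came from polyadenylated RNA (TruSeq stranded mRNA), while VCaP received 40 nM in DMEM and its libraries came from total RNA (TruSeq total RNA). All 4 groups grew with foetal calf serum, and all carried a transfected siRNA. The knockdown is transient, and each line stands for 1 tumour. The question put to the data was how the markers differed between siFOXA1 and NSI in each line.

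Neuroendocrine cells store peptides in dense-core granules and release them when calcium enters the cell. Granins (CHGA, CHGB, SCG2, SCG3) are acidic proteins that help to form these granules and are cut into peptides, NPY is a peptide cargo, and SYP is a membrane protein of small synaptic-like vesicles. INSM1 is a zinc-finger transcription factor of neuroendocrine differentiation, NCAM1 (CD56) a cell adhesion molecule and ENO2 the neuronal form of the glycolytic enzyme enolase. In the prostate these proteins mark the scattered neuroendocrine cells of the epithelium and the neuroendocrine carcinomas that can arise under hormone treatment.

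FOXA1, the siRNA target, fell in both lines. Its level in CPM (a count relative to the total and TMM factor of its library) was 296.2, 246.5 and 260.9 in PC3 NSI and 165.0, 184.1 and 163.6 in PC3 siFOXA1, which left 63.8% of the NSI mean (log2 fold change −0.65, SE 0.10, edgeR quasi-likelihood adjusted p 0.00222). In VCaP it was 457.6, 467.9 and 543.5 CPM in NSI against 85.2, 73.6 and 83.1 in siFOXA1, or 16.5% of the NSI mean (log2 fold change −2.60, SE 0.09, adjusted p 1.84e-07). The groups did not overlap in either line, and the exact permutation test, two-sided over 20 arrangements, gave p 0.1 in each, the smallest it can give. The PC3 libraries totalled 123140099 to 188226483 counts each, and those of VCaP 48187047 to 59839211. The luminal marker KLK3 set the lines apart, at 69.4 CPM in VCaP NSI against 2.67 counts summed over the 3 PC3 NSI libraries. The labels do not say whether replicates were separate cultures, so the p-values measure only the spread between these libraries, which may be technical. These are bulk samples, in which fewer cells of a type and less RNA per cell cannot be told apart.

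Before any knockdown response, the lines differed in which markers they held at all. In VCaP NSI all 9 genes had counts well above 0, and NPY was by far the most abundant. In PC3 NSI only ENO2 was abundant, SYP and SCG2 were low, and the other 6 genes had at most 9.12 counts in any NSI library. Levels between genes are compared here as RPKM, CPM per kilobase of merged exons. NPY stood at 284.7 ± 45.2 RPKM in VCaP NSI (SD, n = 3; range 249 to 335), above 99.4% of the 14629 protein-coding genes tested in that line. SCG3 followed at 8.53 ± 0.244, CHGA at 7.80 ± 1.82, CHGB at 7.01 ± 0.660 and SYP at 6.01 ± 0.505 RPKM, each above between 56.3% and 66.1% of the protein-coding genes. Neighbours among these 4 overlapped in range and are not ordered beyond their spread, although SCG3 (8.32 to 8.80) lay above CHGB (6.43 to 7.73). INSM1 at 2.28 ± 0.234 and ENO2 at 1.79 ± 0.113 RPKM came next, and their ranges did not overlap. SCG2 at 0.429 ± 0.084 and NCAM1 at 0.317 ± 0.038 RPKM were lowest, with overlapping ranges.

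PC3 had a different order. ENO2 was at 18.9 ± 2.15 RPKM in NSI (SD, n = 3), above 80.5% of 15870 protein-coding genes tested, SYP was at 0.396 ± 0.0484 and SCG2 at 0.110 ± 0.0236 RPKM. Their ranges did not overlap. No other member exceeded 0.0315 RPKM in a PC3 NSI library, the value of NPY in replicate 2. The kit, dose, medium and strand setting differ with the line, so levels were not tested between lines.

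**Figure D1:**
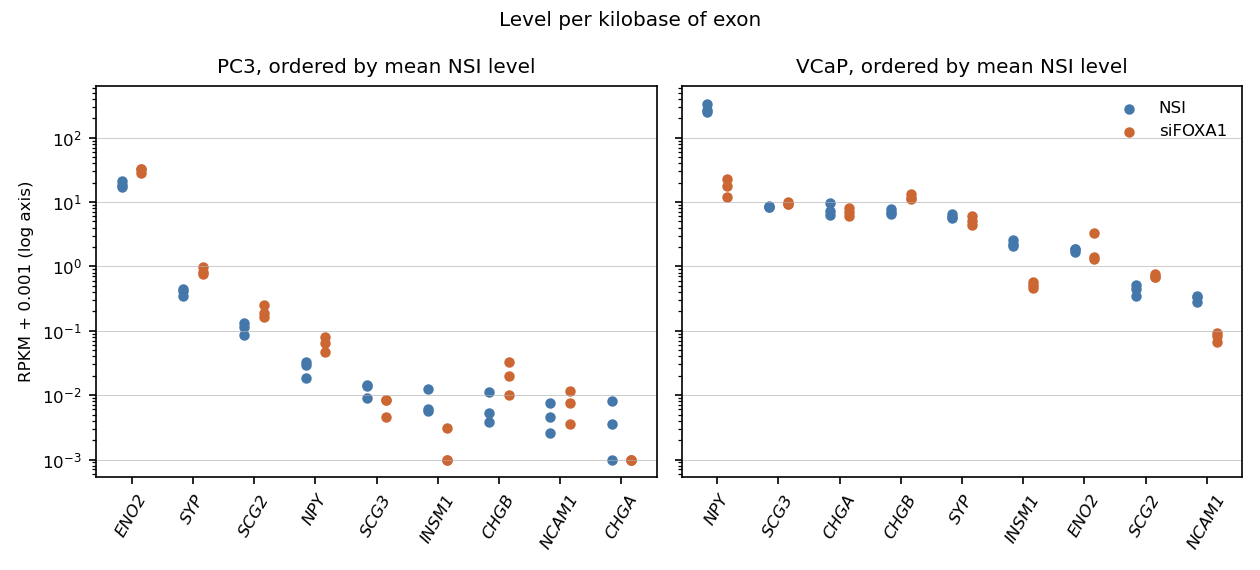
Level of each marker gene in RPKM plus 0.001 on a log axis, 1 point per library, NSI in blue and siFOXA1 in orange, with genes ordered by their mean NSI level in PC3 (left) and VCaP (right). NPY leads in VCaP NSI with 249 to 335 RPKM and ENO2 leads in PC3, where 6 of the 9 genes lie near the bottom of the axis.

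In VCaP the markers did not move together. Of 9 tested, 2 rose (CHGB and SCG2), 3 fell (NPY, INSM1 and NCAM1) and 4 did not pass the test (CHGA, SCG3, SYP and ENO2). A call is an adjusted p under 0.05, and 45.8% of all 22925 genes tested in VCaP were called, 22.5% higher and 23.3% lower, so 5 calls of 9 is a share close to that of all genes. The median log2 fold change of the 9 was −0.15, against 0.02 over all genes tested. The 3 falls were large: the siFOXA1 means were 6.09%, 22.6% and 24.8% of the NSI means for NPY, INSM1 and NCAM1, while CHGB and SCG2 rose 1.70 and 1.65 times.

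**Figure D2:**
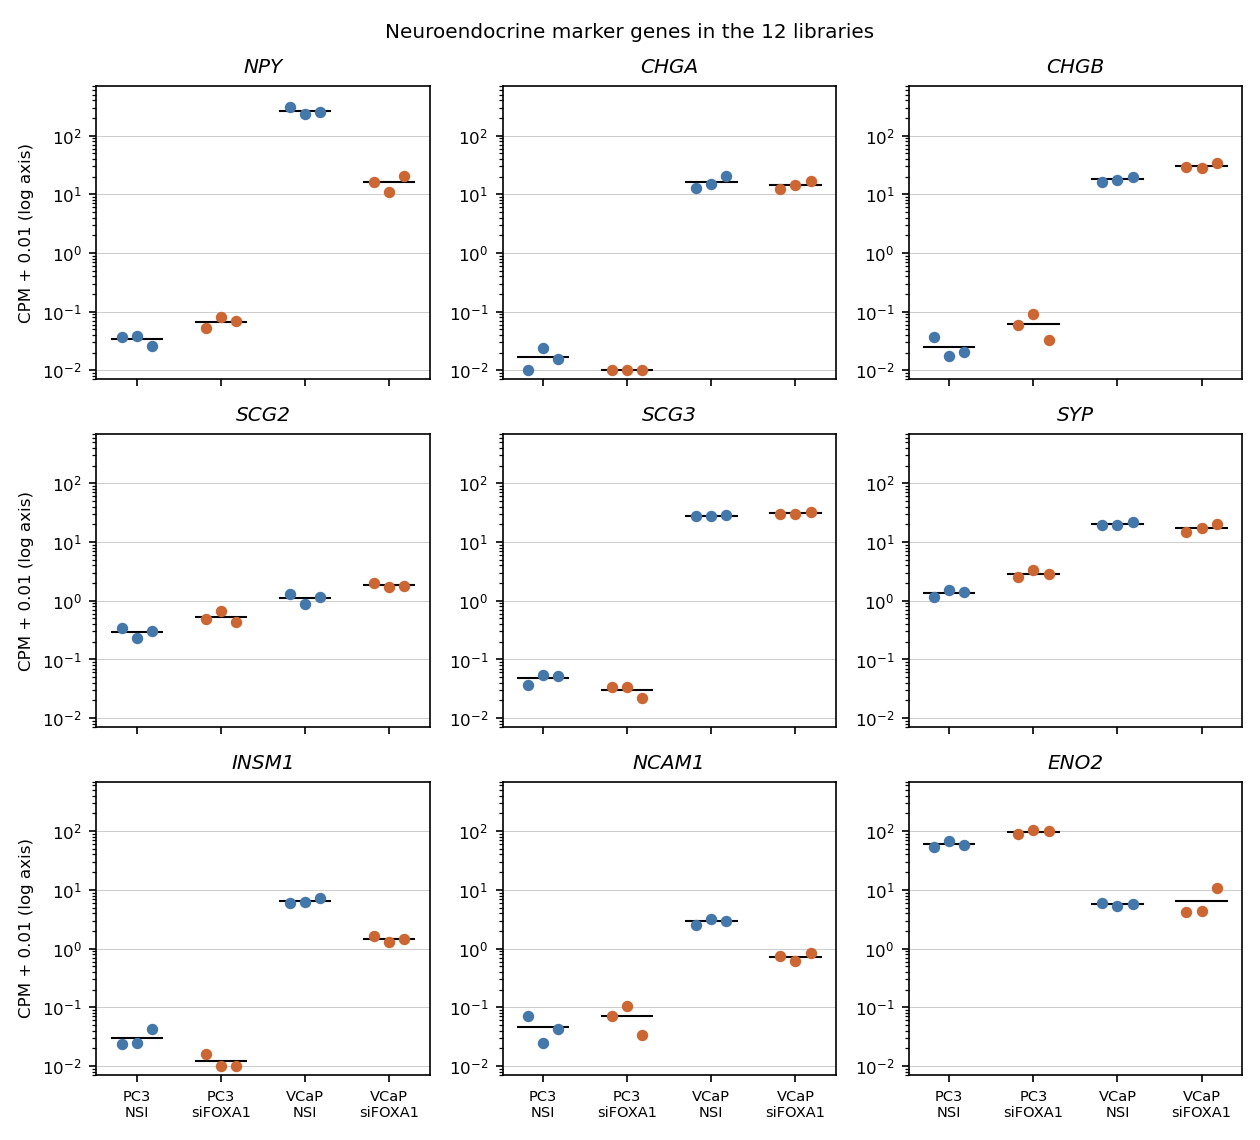
Each panel gives 1 marker gene in the 12 libraries, in CPM plus 0.01 on a log axis, with 3 points per group, replicates 1 to 3 from left to right, and a line at the group mean. NPY, INSM1 and NCAM1 drop between VCaP NSI and VCaP siFOXA1, CHGB and SCG2 rise, and the third siFOXA1 library of VCaP stands above the others for ENO2.

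NPY (neuropeptide Y, ENSG00000122585.7_2, chromosome 7, 24323782 to 24331484, plus strand, GRCh37, 5 merged exon blocks) is cleaved from a precursor inside the granules and signals through G-protein-coupled receptors. VCaP NSI libraries held 16045, 11506.5 and 14290.6 NPY counts, and siFOXA1 libraries held 818, 548 and 1091. In CPM these were 309.0, 229.3 and 248.3 against 16.2, 10.9 and 20.8. The lowest NSI library was thus far above the highest siFOXA1 library. The means were 262.2 ± 41.6 and 15.97 ± 4.94 CPM (SD, n = 3 each), and the fall was −4.04 as a log2 fold change (SE 0.22, edgeR quasi-likelihood adjusted p 1.24e-06). Over 14 alternatives the log2 fold change ranged from −4.27 to −3.82. Even at this reduced level NPY remained the member with the highest mean in VCaP siFOXA1, 17.3 ± 5.37 RPKM, although its range (11.8 to 22.6) overlapped that of CHGB (11.0 to 13.3). NPY made up 72.6% of the summed CPM of the 9 genes in VCaP NSI and 13.3% in siFOXA1. The sum fell from 360.9 ± 38.4 to 120.1 ± 16.6 CPM, whereas the 8 genes without NPY summed to 98.7 ± 8.69 CPM in NSI and 104.1 ± 12.5 in siFOXA1.

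The 250 bases before the start of NPY, which had the largest change, and of CHGA, which was at a moderate level and not called, are shown as 5′ to 3′ runs from the RefSeq promoter table (GRCh38.p14), NPY at chr7:24283940-24284189 and CHGA at chr14:92922900-92923149, both on the plus strand. Capitals mark GC boxes (GGGCGG, in both) and the cAMP response element (TGACGTCA, in CHGA).
NPY: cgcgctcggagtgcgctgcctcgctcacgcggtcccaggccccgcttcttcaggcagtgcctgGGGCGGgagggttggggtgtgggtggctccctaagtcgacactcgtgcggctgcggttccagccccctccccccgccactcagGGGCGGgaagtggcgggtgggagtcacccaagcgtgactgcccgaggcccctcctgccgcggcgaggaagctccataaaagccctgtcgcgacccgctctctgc
CHGA: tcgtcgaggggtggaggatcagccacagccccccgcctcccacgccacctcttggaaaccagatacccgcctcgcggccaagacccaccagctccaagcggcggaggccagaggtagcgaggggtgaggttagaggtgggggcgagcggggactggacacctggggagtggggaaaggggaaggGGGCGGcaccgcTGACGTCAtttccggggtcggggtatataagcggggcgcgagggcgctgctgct

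The table held 5 of the 9 genes, NPY, ENO2, CHGA, SCG3 and SYP, among 35116 promoters, and each motif was searched on both strands of the 250 bases. The forkhead motif was searched as TGTTTAC and TATTTAC, found in 2.98% and 2.40% of all promoters and in none of the 5. The left part of the REST site, TTCAGCACC, was in 0.288% of promoters and in none of the 5. CHGA had TGACGTCA starting 54 bases before its start site, a motif in 1.65% of promoters. GGGCGG was in NPY (187 and 104 bases upstream), CHGA (66 bases upstream), ENO2 and SYP, and in 42.6% of promoters, and SCG3 held CAGCTG at 226 and 174 bases upstream, a motif in 14.0%. These windows were rich in G and C: 71.6% in NPY, 74% in ENO2, 68.8% in CHGA, 61.6% in SCG3 and 74% in SYP, against a median of 58% over the table. No match in a window says only that the letters are not there.

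The granins split in VCaP, with CHGB and SCG2 higher and CHGA and SCG3 not called. CHGB (chromogranin B, ENSG00000089199.9_3, chromosome 20, 5892076 to 5906007, plus strand, GRCh37) was at 16.4, 17.5 and 19.7 CPM in NSI against 29.1, 28.1 and 33.8 in siFOXA1. All siFOXA1 libraries were above all NSI libraries. The means were 17.9 ± 1.68 and 30.3 ± 3.05 CPM (SD, n = 3 each), and CHGB rose by 0.76 on the log2 scale (SE 0.09, quasi-likelihood adjusted p 0.000149). SCG2 (secretogranin II, the precursor of secretoneurin, ENSG00000171951.4_3, chromosome 2, 224461658 to 224467221, minus strand) had 68.5, 44 and 65 counts in NSI against 100.5, 87.33 and 91.5 in siFOXA1, or 1.31, 0.877 and 1.13 against 1.98, 1.73 and 1.75 CPM. Its groups did not overlap either, at a level some way below CHGB. The log2 fold change of SCG2 was 0.72 (SE 0.17, quasi-likelihood adjusted p 0.00763).

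CHGA (chromogranin A, the granin most used as a serum and tissue marker, ENSG00000100604.12_4, chromosome 14, 93389425 to 93401638, plus strand) was at 12.9, 15.1 and 20.3 CPM in VCaP NSI against 12.3, 14.3 and 16.8 in siFOXA1. The groups overlapped, and the spread within each was wider than the distance between their means. Its log2 fold change of −0.15 had a 95% interval from −0.53 to 0.22 (quasi-likelihood adjusted p 0.478), and it was 0.04 without NSI replicate 3. SCG3 (secretogranin III, which binds CHGA and cholesterol at the granule membrane, ENSG00000104112.8_3, chromosome 15, 51973550 to 52013228, plus strand) was at 27.6, 28.1 and 29.2 CPM in NSI against 30.6, 30.6 and 32.9 in siFOXA1. These groups did not overlap, but the distance was small, a log2 fold change of 0.15 (95% interval 0.02 to 0.28, quasi-likelihood adjusted p 0.0639). With upper-quartile scaling SCG3 was called, at 0.20 (adjusted p 0.0177). In all, 3 of the 9 genes had every siFOXA1 library above every NSI library in VCaP, against 27.9% of all genes, and 3 had every one below, against 28.0%.

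SYP (synaptophysin, the main membrane protein of synaptic vesicles, ENSG00000102003.10_3, chromosome X, 49044257 to 49056718, minus strand, GRCh37) was at 19.6, 19.2 and 22.3 CPM in VCaP NSI against 14.9, 17.4 and 20.3 in siFOXA1. The groups overlapped through siFOXA1 replicate 3. The log2 fold change was −0.21 (95% interval −0.47 to 0.04, quasi-likelihood adjusted p 0.149), and without that library it was −0.33 (adjusted p 0.0231).

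INSM1 and NCAM1 both fell in VCaP to about the same share of their NSI level. INSM1 (ENSG00000173404.4_2, chromosome 20, 20348765 to 20351593, plus strand, a gene of 1 exon) was at 5.89, 6.26 and 7.18 CPM in NSI against 1.63, 1.29 and 1.45 in siFOXA1, with counts from 305.5 to 413.33 against 65 to 81.83. The groups did not overlap, and the log2 fold change was −2.14 (SE 0.13, quasi-likelihood adjusted p 2.46e-06). NCAM1 (ENSG00000149294.16_5, chromosome 11, 112831969 to 113149158, plus strand, 28 merged exon blocks) was at 2.50, 3.17 and 2.99 CPM in NSI against 0.734, 0.596 and 0.819 in siFOXA1. Its groups were also apart, with 130 to 171.67 counts against 30.5 to 43.33. The log2 fold change of NCAM1 was −2.005 (SE 0.17, quasi-likelihood adjusted p 1.48e-05). In siFOXA1 the 2 genes stood at 0.515 ± 0.0593 and 0.0786 ± 0.0123 RPKM, and INSM1, above SCG2 in NSI, was then below SCG2 (0.707 ± 0.0549 RPKM) with no overlap in range.

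ENO2 (enolase 2, long measured as neuron-specific enolase, ENSG00000111674.8_3, chromosome 12, 7023491 to 7032861, plus strand) was at 5.93, 5.26 and 5.80 CPM in VCaP NSI against 4.15, 4.37 and 10.6 in siFOXA1. Replicates 1 and 2 of siFOXA1 were below every NSI library and replicate 3 was above them all. The log2 fold change was 0.17 (95% interval −0.54 to 0.88, quasi-likelihood adjusted p 0.688). Without siFOXA1 replicate 3 it was −0.41 (adjusted p 0.0180), so this library decides the direction of ENO2 in VCaP. Without it, 7 of the 9 genes were called, the same 5 with SYP and ENO2 added as lower, beside 9879 of all 23517 genes tested. The same library had high PGK1 (phosphoglycerate kinase, a glycolytic enzyme), at 291.0 CPM against 225.2 and 230.7 in the other siFOXA1 libraries and 218.7 to 250.9 in NSI. PGK1 was picked as the gene most like ENO2 over these same 12 libraries, so a high value in that library is favoured by the choice. The part of PGK1 in the ENO2 value was not tested.

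In PC3 the 3 members that could be tested all rose: SYP, ENO2 and SCG2. The other 6 were under the filter on low counts. Of 26435 genes tested in PC3, 27.0% were called, 15.0% higher and 12.1% lower, and the siFOXA1 libraries lay entirely above NSI for 23.9% of the genes and entirely below for 20.5%. That number of genes called, 7149, was 4602 without NSI replicate 3 and 3945 without siFOXA1 replicate 1, and 11297 with a replicate block. SYP and ENO2 were called in all 14 alternatives, and SCG2 was not.

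SYP in PC3 had 175.95, 205.46 and 256.35 counts in NSI against 427.25, 409.12 and 478.72 in siFOXA1, or 1.16, 1.49 and 1.38 against 2.58, 3.29 and 2.80 CPM. Every siFOXA1 library was above every NSI library, and the mean rose 2.15 times. The log2 fold change was 1.10 (SE 0.16, quasi-likelihood adjusted p 0.00156). The PC3 counts ignored strand, and 1.95% of the exonic bases of SYP overlap an antisense gene on the other strand, whose reads cannot be told apart from those of SYP. Although it rose, SYP in PC3 siFOXA1 (0.851 ± 0.107 RPKM) was still a low-abundance transcript.

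ENO2 in PC3 was at 54.5, 67.5 and 57.7 CPM in NSI against 89.1, 103.3 and 101.3 in siFOXA1. No siFOXA1 library overlapped an NSI library, on counts of 8230 to 17357. The means, 59.9 ± 6.79 and 97.9 ± 7.68 CPM (SD, n = 3 each), differed 1.64 times, and the log2 fold change was 0.71 (SE 0.11, quasi-likelihood adjusted p 0.00214). ENO2 accounted for nearly all of the summed level of the 9 genes in PC3, which went from 61.6 ± 6.86 to 101.5 ± 8.05 CPM. SCG2 in PC3 had 51, 30 and 55 counts in NSI against 79.5, 81 and 72 in siFOXA1, 2 groups that did not overlap. Its log2 fold change was 0.85 (SE 0.26, quasi-likelihood adjusted p 0.0417), close to the 0.72 of VCaP. This call was lost when any 1 of the 6 PC3 libraries was left out (log2 fold change 0.63 to 0.99, adjusted p 0.0504 to 0.137) and when the TMM factors were taken before the filter (0.82, adjusted p 0.0505).

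For the 6 members under the filter in PC3, raw counts are given. They come from libraries of at least 123140099 counts, in which 3 counts, the number that a count of 0 allows, are 0.0161 to 0.0241 CPM. CHGA had 0, 2 and 0.67 counts in NSI and 0 in all 3 siFOXA1 libraries, and it is at or under that limit in every library. CHGB had 4.5, 1 and 2.5 counts in NSI against 8, 10 and 4 in siFOXA1, which overlap. The counts of SCG3 were 3.5, 6 and 8.25 against 4, 3 and 2, which overlap as counts but not in CPM (0.0265 to 0.0435 against 0.0117 to 0.0241). Fractions arise because the authors split shared fragments among genes.

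INSM1 had 2, 2.25 and 6.25 counts in PC3 NSI against 1.25, 0.5 and 0 in siFOXA1, so its siFOXA1 libraries are all under the limit. NCAM1 had 9.12, 2.27 and 6.5 counts against 10, 12 and 4.25, which overlap, and 3.49% of its exonic bases lie opposite antisense genes. NPY had 4, 4.5 and 3.25 counts in NSI against 7, 9 and 10 in siFOXA1, a sum of 11.75 against 26. NPY in PC3 thus had every siFOXA1 library above every NSI library, at a level far below that of VCaP NSI and near the limit. In CPM, INSM1 and SCG3 had every siFOXA1 library below every NSI library, also at or near the limit. Among the genes tested in PC3, 23.9% lay entirely above and 20.5% entirely below. Tested with no filter, none of the 6 was called in PC3 by the edgeR quasi-likelihood test (adjusted p 0.236 to 0.575), and 0 had an unadjusted p under 0.05, the smallest being 0.0700 for CHGB. In the fit of all 12 libraries, which borrows its spread from both lines, CHGB was called higher in PC3 (log2 fold change 1.63, adjusted p 0.0353) and INSM1 lower (−2.71, adjusted p 0.0203). In that fit 5 of 9 members were called in PC3, beside 9079 of all 30425 genes tested. Fitted changes at such counts depend on the prior count.

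**Figure D3:**
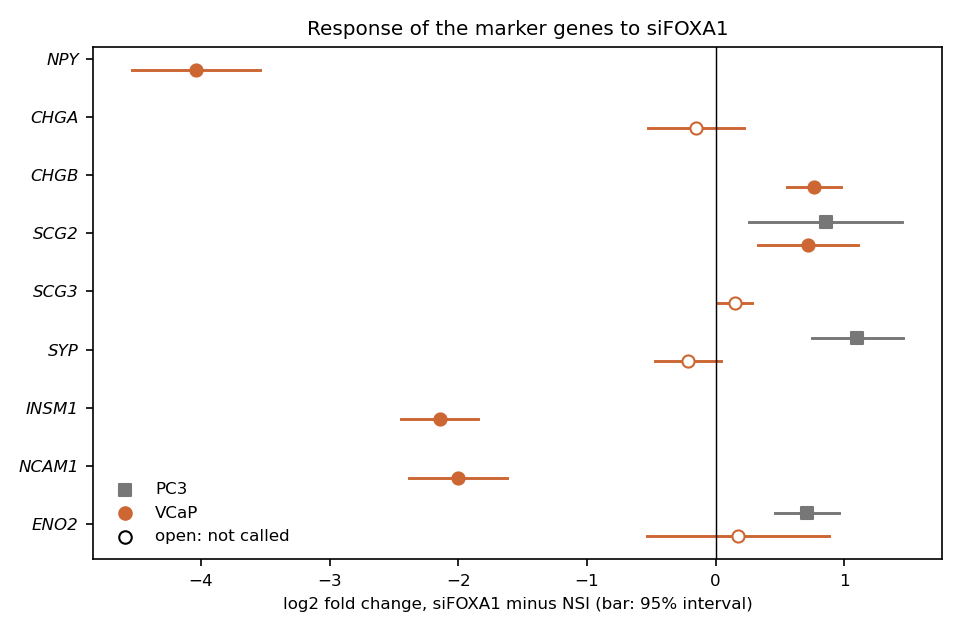
Log2 fold change of siFOXA1 minus NSI for each marker gene, with its 95% interval as a bar, in PC3 (grey squares, 3 genes tested) and VCaP (orange circles, 9 genes tested); filled symbols are called and open symbols are not. NPY, INSM1 and NCAM1 lie at −4.04, −2.14 and −2.005 in VCaP, and the 3 genes tested in PC3 lie between 0.71 and 1.10.

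Whether a marker responded differently in the 2 lines was tested as an interaction of line and siRNA in a model of the 12 libraries together, where a negative value is a lower response in VCaP than in PC3. It was called for 3 of the 9 genes, SYP, NCAM1 and NPY, each lower in VCaP, where 22.2% of 30425 genes were called, 11.3% higher and 11.0% lower. Library size alone as scaling turned the 3427 higher and 3333 lower calls over all genes into 2643 and 3880, and left the same number of members called. SYP is the best measured of these, with at least 175.95 counts in each of the 12 libraries: its interaction was −1.30 (SE 0.19, quasi-likelihood adjusted p 0.000114), between a rise in PC3 and a change in VCaP that did not pass the test. For NPY it was −5.26 (SE 0.74, quasi-likelihood adjusted p 9.45e-05) and for NCAM1 −2.64 (SE 0.59, adjusted p 0.00447). Both are set against PC3 libraries of 12 counts or fewer. In the same fit the VCaP changes of NPY and NCAM1 were −4.00 and −1.98. Their PC3 changes, 1.25 and 0.67, were not called. The 2 interactions thus rest on the falls in VCaP, and such low PC3 counts cannot settle their size. The interactions of SYP, NPY and NCAM1 were called in each of 19 alternatives, none of which adds PC3 counts for NPY or NCAM1.

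The interaction of ENO2 was −0.52 (95% interval −1.25 to 0.21, quasi-likelihood adjusted p 0.328), and it was −1.11 (adjusted p 0.000126) without VCaP siFOXA1 replicate 3. SCG2 had the closest effects in the 2 lines, with an interaction of −0.11 (95% interval −0.78 to 0.57, adjusted p 0.903). CHGB (−0.84), INSM1 (0.60), SCG3 (1.09) and CHGA (2.52) did not pass the test, with adjusted p from 0.148 to 0.610, and all 4 were nearly absent from PC3. The line cannot be told apart from the siRNA dose, the medium, the kit, the strand setting and the depth of the FOXA1 fall in any of these differences.

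For the 3 members tested in both lines, the protein-coding genes most like each one over the 12 libraries were found by Pearson's r of log2(CPM + 1) after subtracting each line's mean, among 11659 genes. The values are a description with no test, since siRNA group, depth and line are shared by all of them. SYP was most like FAM219A (r = 0.97) and KDELC1 (r = 0.96). ENO2 was most like PGK1 (r = 0.93) and KLHL3 (r = 0.92), and KLHL3 too was high in VCaP siFOXA1 replicate 3, at 22.0 CPM against 15.0 to 16.5 in the other 5 VCaP libraries. Both genes were chosen for their likeness to ENO2, so their high values there are no separate evidence on that library. SCG2 was most like TRPC4AP (r = 0.96) and ZFP36 (r = 0.95), an RNA-binding protein that promotes mRNA decay.

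Genes that work with the markers were grouped in lists chosen for their function. Of all genes tested, 45.8% were called in VCaP (22.5% higher, 23.3% lower) and 27.0% in PC3 (15.0% higher, 12.1% lower). List counts near these shares say nothing particular to a list. For granule cargo and processing, 20 of 22 genes were tested in VCaP and 6 rose and 9 fell (median log2 fold change −0.21, all genes 0.02), while in PC3 6 of 18 rose and 2 fell (median 0.18, all genes 0.02). The rises in VCaP included CADPS, which primes dense-core vesicles for release (1.22, from 39.1 ± 7.39 to 91.3 ± 15.4 CPM), and PCSK1N, an inhibitor of prohormone convertase 1 (0.96), which lost its call in 1 of 14 alternatives. PCSK1, that convertase itself, rose from 24.25 to 138.25 counts summed over 3 VCaP libraries (log2 fold change 2.56, SE 0.24, quasi-likelihood adjusted p 2.81e-05). RAB27B, a GTPase of granule docking, fell from 101.4 ± 6.95 to 21.4 ± 2.52 CPM (−2.24), and DDC, which makes dopamine and serotonin from their precursors, fell by 1.62 on the log2 scale. CPE, the carboxypeptidase that trims prohormones, did not pass the test in either line (−0.19 in VCaP, −0.12 in PC3). In PC3 PAM, which amidates peptides such as NPY, rose from 131.4 ± 6.37 to 215.8 ± 4.23 CPM (0.72), SLC18A2, a vesicular monoamine transporter, fell (−0.76), and CADPS2 fell (−0.40). HID1 rose by 0.27, a call lost in 8 of 14 alternatives.

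Of the vesicle fusion and synaptic vesicle genes, the companions of SYP, 4 rose and 5 fell among 19 tested in VCaP (median 0.01), and 4 rose and 1 fell among 17 in PC3 (median 0.07). Both counts are close to the shares of all genes called, 45.8% in VCaP and 27.0% in PC3. SYT4, a synaptotagmin, rose in VCaP (0.99, from 29.8 ± 4.47 to 59.4 ± 9.30 CPM) and so did VAMP2, a vesicle SNARE (0.68), whereas CPLX2, a complexin, fell (−1.13). SYT13 rose in PC3 (1.497) from a low level, 0.840 ± 0.0573 CPM, and SYT7 fell there (−0.70), a call lost in 4 of 14 alternatives. The PC3 count of 5 called was 3 without NSI replicate 1 or siFOXA1 replicate 1 and 2 without NSI replicate 3 or siFOXA1 replicate 3, and it was 9 with a replicate block.

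Lineage regulators, the transcription factors and related genes that accompany INSM1, gave 9 falls and 1 rise among 15 tested in VCaP (median −0.54, all genes 0.02), and 2 rises and 2 falls among 15 in PC3 (median −0.07). Over all genes tested, 22.5% rose and 23.3% fell in VCaP, and 27.0% were called in PC3, close to the PC3 share of this list. The VCaP count of 10 called was 6, with 5 falls and 1 rise among 20 tested, in the fit of all 12 libraries. In VCaP that fit called 8531 of all 30425 genes tested, a share close to 6 of 20. INSM2, the closest relative of INSM1, fell in VCaP (−1.30, from 2.08 ± 0.438 to 0.848 ± 0.0694 CPM), as did LHX2 (−1.32). SRRM4, a splicing factor of neural exons, fell in VCaP (−0.56, from 7.05 ± 0.718 to 4.80 ± 0.530 CPM), and lost its call in 1 of 14 alternatives. The single rise was in FOXA2, a forkhead gene of neuroendocrine prostate tumours, from 0.119 ± 0.0538 to 1.86 ± 0.181 CPM (3.94, SE 0.27, adjusted p 3.82e-06), and in PC3 FOXA2 was at 31.3 ± 3.45 CPM in NSI and 36.3 ± 9.14 in siFOXA1 (0.21, adjusted p 0.385). NEUROD1 had 1.25 and 0 counts in the VCaP groups and 65.9 and 37.64 in those of PC3 (−0.78, adjusted p 0.353).

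AURKA, a mitotic kinase on that list, fell in PC3 (−1.08, from 69.0 ± 1.46 to 32.6 ± 0.809 CPM), and POU3F2, a neural factor, rose (0.57, from 6.60 ± 0.101 to 9.79 ± 1.09 CPM). EZH2 fell by 0.30 and PROX1 rose by 0.40, calls lost in 4 and 8 of 14 alternatives. The PC3 count of 4 called was 2 without NSI replicate 3, siFOXA1 replicate 1 or siFOXA1 replicate 3, and 7 with a replicate block.

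REST, the repressor that keeps neuronal genes off outside the nervous system, rose in VCaP from 48.9 ± 1.59 to 64.9 ± 3.65 CPM (0.41, SE 0.06, quasi-likelihood adjusted p 0.000494) and was at 46.1 ± 6.56 and 44.1 ± 5.68 CPM in PC3 (−0.06, adjusted p 0.758). Of the 6 repressors listed, 2 rose and 2 fell in VCaP and 1 fell in PC3. NOTCH2 (−0.78) and NOTCH1 (−0.48) fell and HES1 (0.37, lost in 5 of 14 alternatives) rose in VCaP, and HES1 fell in PC3 (−0.66). Known REST targets, which include SYT4, UNC13A and SRRM4, gave 5 rises and 2 falls among 10 tested in VCaP (median 0.42), and 5 rises among 10 in PC3 (median 0.70). Among all genes, 22.5% rose and 23.3% fell in VCaP, and 15.0% rose in PC3. SCN2A, a sodium channel subunit, rose in both, by 1.82 in VCaP and 1.20 in PC3, STMN3 rose in PC3 (0.91), and UNC13A fell in VCaP (−0.50). The PC3 count of 5 was 3 without siFOXA1 replicate 1 or siFOXA1 replicate 3.

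Other peptides and hormones gave 1 rise and 4 falls among 8 tested in VCaP (median −0.37) and 3 rises and 2 falls among 9 in PC3 (median −0.14). The shares of all genes called were 45.8% in VCaP and 27.0% in PC3. The VCaP count of 5 called was 3 in the fit of all 12 libraries, where 11 were tested, beside 8531 of all 30425 genes. NTS (neurotensin) fell in VCaP beside NPY, from 1.69 ± 0.0246 to 0.361 ± 0.114 CPM (−2.22), but rose in PC3 from 1.25 ± 0.390 to 2.54 ± 0.290 CPM (1.02, quasi-likelihood adjusted p 0.0109). The difference between the lines was not tested for NTS. NMU fell in VCaP (−0.57), a call lost in 1 of 14 alternatives. ADM (adrenomedullin) rose in both lines, by 0.60 in VCaP and 1.04 in PC3. In PC3 PTHLH rose (1.22), and GAL (−1.52) and NMB (−0.81, lost in 2 of 14 alternatives) fell. SST, VIP and CCK were at 0 in all 6 VCaP libraries and TAC1 in all 6 of PC3.

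Among the receptors and peptidases of NPY, 2 rose and 2 fell of 4 tested in VCaP, and 2 rose of 4 in PC3. Of all genes tested, 45.8% were called in VCaP and 27.0% in PC3. DPP4, which trims NPY and so changes its receptor preference, rose in VCaP from 7.61 ± 1.90 to 34.6 ± 5.90 CPM (2.19, SE 0.18, quasi-likelihood adjusted p 1.35e-05), and was at 241.2 ± 9.57 and 267.8 ± 10.4 CPM in PC3 (0.15, adjusted p 0.197). MME (neprilysin), which degrades NPY and other peptides, rose in VCaP from 49.6 ± 9.73 to 182.4 ± 12.4 CPM (1.88). NPY1R, a main NPY receptor, had 1 and 2 counts in the VCaP groups and rose in PC3 from 1.85 ± 0.0860 to 2.69 ± 0.309 CPM (0.54), a call lost in 4 of 14 alternatives. The PC3 count was 1 when replicate 1 or 3 of NSI, or replicate 1 or 2 of siFOXA1, was left out.

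ENO1, the enolase of most tissues, did not pass the test in PC3, where ENO2 rose (0.13, adjusted p 0.417), or in VCaP (0.01, adjusted p 0.949); the sign of the VCaP value changed in 6 of 14 alternatives. NCAM2, the paralogue of NCAM1, fell in VCaP (−0.70, from 13.9 ± 1.36 to 8.54 ± 1.37 CPM), and L1CAM, a related adhesion molecule, rose (0.57), a call lost in 2 of 14 alternatives. ST8SIA4, which adds polysialic acid to NCAM1, rose in PC3 (0.97). This list of 7 gave 2 rises and 1 fall among 5 tested in VCaP and 1 rise among 5 in PC3. Beside it, 45.8% of all genes tested were called in VCaP and 27.0% in PC3. That PC3 count of 1 moved in 7 of 14 alternatives: it was 3 in the fit of all 12 libraries, and 2 with library size alone, no filter, DESeq2, a replicate block, or without NSI replicate 3 or siFOXA1 replicate 2.

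**Figure D4:**
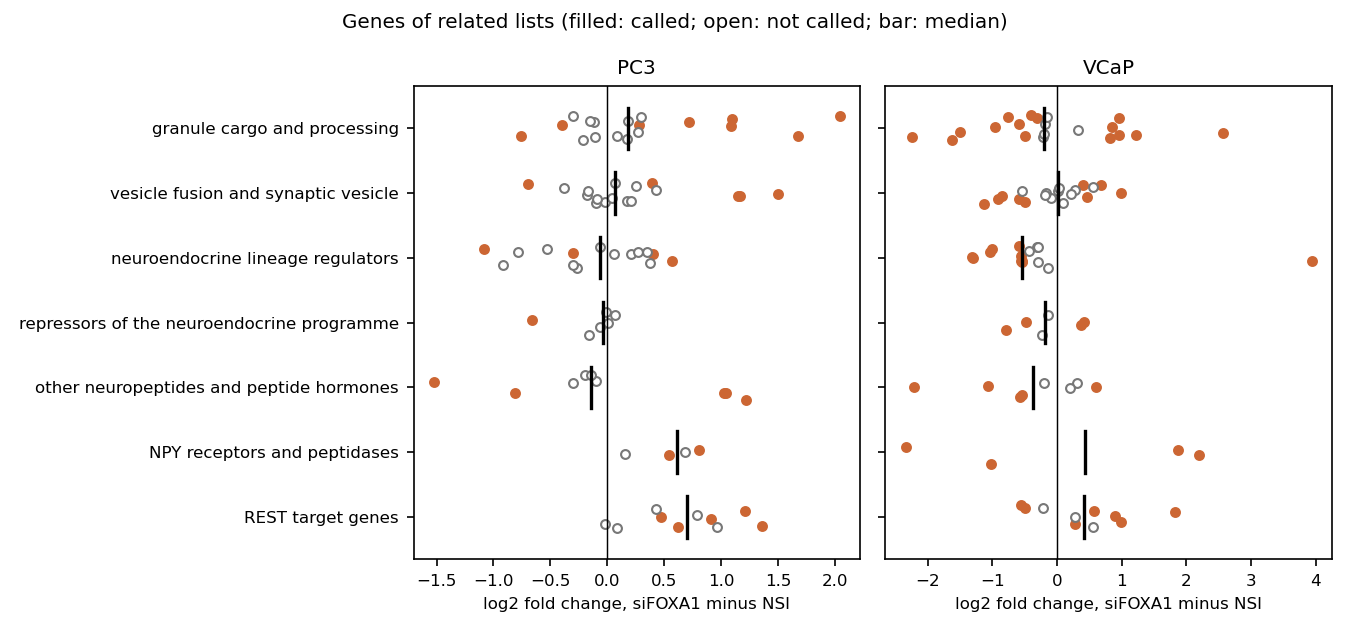
Log2 fold change of siFOXA1 minus NSI for the tested genes of 7 related lists in PC3 (left) and VCaP (right), 1 point per gene, filled where called, with a bar at the list median. The lineage regulators of VCaP lie mostly left of 0 with a median of −0.54 and FOXA2 far to the right at 3.94, and the REST targets lie mostly right of 0 with medians of 0.70 and 0.42.

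Markers of other cell types were read beside these results, where 45.8% of all genes were called in VCaP and 27.0% in PC3. Of the luminal markers, KLK2, a kallikrein protease, fell in VCaP from 1626 ± 189 to 783 ± 128 CPM (−1.05), while KLK3 was at 69.4 ± 28.5 and 63.3 ± 16.03 CPM (−0.13, quasi-likelihood adjusted p 0.711). In PC3 both were under the filter on low counts. Neuron markers had 2 of 5 tested higher in VCaP, NEFL (2.50) and NEFM (2.05), and TUBB3 lower (−0.47, lost in 7 of 14 alternatives). This count of 3 was 5 with a replicate block. The neuron markers summed to 152.2 to 156.1 CPM in VCaP NSI and 320.6 to 383.0 in siFOXA1. NEFL alone went from 39.8 ± 4.49 to 224.6 ± 40.2 CPM, which is most of that rise. In PC3 the sums were 213.0 to 262.0 CPM in NSI and 188.0 to 215.0 in siFOXA1. NEFL was most of them, at 185.0 ± 14.9 and 136.3 ± 8.16 CPM. In PC3 2 of 6 neuron markers were higher, led by MAP2 (1.68), and 1 was lower, NEFL (−0.44, lost in 1 of 14 alternatives). The PC3 count of 3 was 1 without siFOXA1 replicate 1. RBFOX3, which defines mature neurons, was low in VCaP, with 31.58 and 14.82 counts summed over the groups. Their part in the marker results was not tested.

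Epithelial markers had 1 of 4 lower in VCaP, and 1 higher and 3 lower in PC3, a count of 4 that was 2 without siFOXA1 replicate 1; their sums were 731.6 to 774.1 against 714.9 to 774.4 CPM and 399.9 to 511.7 against 377.5 to 425.0 CPM. Mesenchymal markers had 2 of 3 higher in VCaP, from 5.36 to 6.72 CPM in NSI to 24.3 to 25.6 in siFOXA1, led by CD44 (2.15), and 1 of 3 higher in PC3, CAV1 (0.70), from 1184 to 1264 CPM to 1402 to 1479, a count that was 2 with library size alone or a replicate block. Markers of leukocytes, fibroblasts and endothelium, 5 genes, summed to 5.16 to 8.32 against 2.25 to 4.47 CPM in VCaP and 19.6 to 23.1 against 30.3 to 33.8 CPM in PC3, where 2 of 3 tested were higher and COL1A1 made up most of the sum; CD3E had at most 2.67 counts summed over a group of either line. That PC3 count of 2 was 1 without NSI replicate 2, NSI replicate 3 or any of the 3 siFOXA1 replicates and in the fit of all 12 libraries. The VCaP count of 1 lower was 2 without siFOXA1 replicate 2, with no filter and in the fit of all 12 libraries.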

How the data were processed

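The deposited values are estimated counts per gene for 60106 genes in each of 12 libraries, not normalized. Per the file headers, the authors counted fragments with featureCounts 2.0.0 by gene of GENCODE v28lift37 on GRCh37, dividing fragments that mapped to several places or genes, ignoring strand in PC3 and using the reverse strand in VCaP. The submitters' processing notes also name STAR 2.7.3a. Replicates were distinct libraries (chi-square per degree of freedom 9.80 to 141.4 within groups). Counts were rounded to whole numbers and each line was fitted on its 6 libraries with edgeR 4.0.16 (R 4.3.3), with filterByExpr, TMM factors (0.959 to 1.04) and the two-sided quasi-likelihood test, adjusted by Benjamini-Hochberg over all genes tested, with a call at an adjusted p under 0.05. Levels in CPM and RPKM use rounded counts and those factors. The script was tested on simulated data with known changes. Common dispersions correspond to biological coefficients of variation of 15.0% (PC3) and 9.90% (VCaP). Alternatives were DESeq2 1.42.0, other scalings, no filter, a fit of all 12 libraries, a replicate block and leaving out each library. In PC3 the deviations from the group mean correlated, between libraries of the same number, at 0.41, 0.57 and 0.21 across genes. Libraries of different numbers reached 0.35 (NSI 1 with siFOXA1 3) and 0.18 (NSI 3 with siFOXA1 1), so only the libraries numbered 2 were set apart. In VCaP the same-number values were 0.09, 0.04 and 0.35, and NSI 1 with siFOXA1 2 was at 0.22. These values cannot settle whether the libraries were paired. No main fit holds a block, and the block is an alternative in both lines. Genes named beside the 9 members, FOXA1 and genes fixed by name (REST, NEUROD1, FOXA2, SRRM4, PCSK1, CPE, ENO1, NPY1R, DPP4) are up to 2 with the largest rise and 2 with the largest fall among the calls of each list that averaged 1 CPM or more in the line, some of which are not reported here; KLK3, RBFOX3, CD3E and, in PC3, NTS were named after their values were seen. Members and lists were chosen with earlier results of these data known. Intervals and limits of detection cover counting error or the spread of these libraries only.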

Additional observations from a re-analysis of the deposited data

Results flagged for a closer look

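The response to siFOXA1 differed between the lines for 3 of the 9 marker genes by the interaction test of edgeR (VCaP effect minus PC3 effect, adjusted over 30425 genes). Of all genes in that test 22.2% were called, 11.0% with a lower response in VCaP. SYP differed by −1.30 on the log2 scale (adjusted p 0.000114): all 3 siFOXA1 libraries of PC3 were above all NSI libraries, and the VCaP groups overlapped. NCAM1 differed by −2.64 (adjusted p 0.00447), with every VCaP siFOXA1 library below every NSI library and 2.27 to 12 counts per library in PC3. NPY differed by −5.26 (adjusted p 9.45e-05), with every VCaP siFOXA1 library below every NSI library, and 11.75 counts summed over PC3 NSI against 26 over PC3 siFOXA1. PC3 counts of NCAM1 and NPY were too low to pass the filter, so only the VCaP counts brought these genes into the test. Their calls rest on the falls in VCaP, and their PC3 responses were too thinly counted to be measured. The line cannot be told apart from dose, medium, kit, strand setting and the depth of the FOXA1 fall (63.8% of NSI left in PC3, 16.5% in VCaP).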

How the results depend on the processing

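Over 21 member results and 339 alternatives, 323 kept direction and side of the threshold, 7 lost the call (all SCG2 in PC3), 4 gained one and 5 changed sign. The sign changes were all with a library left out: CHGA in VCaP (−0.30 to 0.044), ENO2 in VCaP (−0.41 to 0.40), and the interactions of INSM1 (−0.060 to 1.98) and of SCG2 (−0.30 to 0.022, with 2 sign changes); the cause was not tested. Genes called in PC3 ranged from 3945 to 7592 over the libraries left out, and were 11297 with the replicate block (5734 higher, 5563 lower), which changed no call of a PC3 member (SCG2 0.84, adjusted p 0.0339). In VCaP the block called 11482 genes and added SYP (−0.22, adjusted p 0.0353). In the fit of all 12 libraries 5 PC3 members were called, with 9 tested, beside 9079 of all 30425 genes. Taking the TMM factors before the filter was added after the data were seen. Of 80 results on related genes with 1119 alternatives, 1041 kept direction and side, 66 lost a call, 1 gained one and 11 changed sign: PC3 REST (−0.17 to 0.024), FOXA2 (−0.040 to 0.31) and VGF (−0.21 to 0.27, with 2 sign changes) with a library left out, and VCaP ENO1 with library size alone (−0.0054), no filter (−0.0010), TMM before the filter (−0.00086) and a library left out (−0.091 to 0.064). The 6 PC3 members under the filter had at most 12 counts in a library. None was called with no filter, and in the fit of all 12 libraries CHGB and INSM1 were called and CHGA, SCG3, NCAM1 and NPY were not (adjusted p 0.187 to 0.360).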

Other observations

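Some other related genes, most of them at low levels, were picked after their values were seen, and not all of them were called. SCG5, the chaperone of prohormone convertase 2, rose in PC3 from 166 to 341 counts summed over 3 libraries (log2 fold change 1.08, edgeR quasi-likelihood adjusted p 0.00349), and had 106 and 92.25 counts in the VCaP groups (−0.16, adjusted p 0.542). Both NPY receptors that could be tested in VCaP fell: NPY2R from 188.5 to 88 counts (−1.03, adjusted p 0.0241, a call lost without NSI replicate 1 at −0.75 or siFOXA1 replicate 3 at −0.80) and NPY4R from 258 to 46.79 counts (−2.34, adjusted p 0.000351). NKX2-2, a neuroendocrine lineage factor, fell in VCaP from 3.51 ± 0.447 to 2.37 ± 0.0899 CPM (−0.56, adjusted p 0.00592), a call lost in the fit of all 12 libraries (adjusted p 0.0820). ST8SIA2, the other enzyme that adds polysialic acid to NCAM1, rose in VCaP from 27.67 to 75.08 counts (1.52, adjusted p 0.00474), while NCAM1 itself fell. VGF, a granin-like precursor, did not pass the test in either line, at 22.2 ± 1.30 and 19.0 ± 2.56 CPM in VCaP and 7.57 ± 1.08 and 8.02 ± 2.63 CPM in PC3.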
